A study of Arabidopsis thaliana with 16 samples.

Results

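Gynoecia that lack both SEU and ANT function were compared with the sum of what each single mutant did alone. All 16 arrays of the series entered, 4 for each of 4 genotypes. Wild type was Col-0, the single mutants carried seu-3 (seu below) or ant-1 (ant below), and the double mutant carried both alleles (seu ant below). Each array was an ATH1 GeneChip hybridized with RNA from its own pool of 15 to 25 gynoecia, dissected by hand at floral stages 8 to 10 from inflorescences kept in ethanol, and the labels call each pool a biological replicate. Each gene is represented by 1 mutant allele, and the control is the Col-0 accession alone. For every probe set, non-additivity was the log2 change from wild type in seu ant less the sum of the changes in seu and in ant, after signals under 16 had been raised to 16. A value of 0 means that the fold changes of the single mutants multiply, a negative value that seu ant lay below that expectation, and a positive value that it lay above.

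SEU encodes a transcriptional co-regulator that works with DNA-binding partners, and ANT encodes an AP2-type transcription factor that promotes the growth of lateral organs. Both act in the young gynoecium, where ovules arise from meristematic tissue at the carpel margins. Loss of either gene alone leaves most of this tissue in place, while the double mutant fails to form ovules. Because RNA came from whole gynoecia, fewer cells of a type and less RNA per cell cannot be told apart.

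In limma, with Benjamini-Hochberg adjustment over all 22746 probe sets and a threshold of 0.05, non-additivity was called in 1163 probe sets, 5.11% of those tested. Of these, 531 (2.33%) lay below the additive expectation in seu ant and 632 (2.78%) above it. Genotypes were called different from each other where the adjusted p passed the same threshold and log2 values differed by over 0.35, and these calls divided the non-additive probe sets into 3 classes. In synergy, seu ant lay beyond wild type and beyond both single mutants. In saturation, at least 1 single mutant had changed and seu ant did not carry the summed change. In reversal, seu ant lay on the opposite side of wild type from a changed single mutant. Synergy held 441 probe sets, saturation 319 and reversal 42, and 361 belonged to none of the 3. By the same calls seu ant was lower than seu in 5.5% of all probe sets and higher in 4.68%, and lower than ant in 9.32% and higher in 9.7%. All of these comparisons share the same arrays. Some single arrays moved the counts of 531 and 632 by more than 1.5 times: the lower one was 349 without wild type replicate 1, 336 without wild type replicate 4, 334 without seu replicate 1, 297 without seu replicate 3 and 302 without seu ant replicate 2, and the higher one 387 without seu replicate 3 and 402 without seu ant replicate 2.

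**Figure D1:**
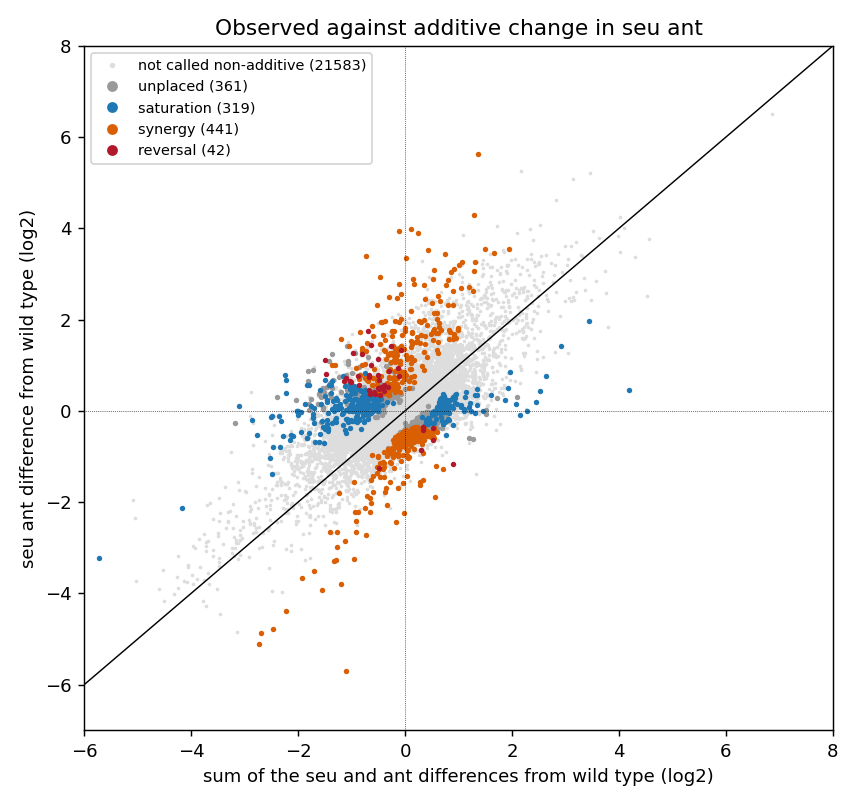
Each point is 1 of the 22746 probe sets, with the sum of the seu and ant log2 differences from wild type on the x axis and the seu ant log2 difference from wild type on the y axis; the solid line marks additivity and colours mark the classes. Synergy (441) spreads along the vertical axis in both directions, saturation (319) lies mostly near the horizontal line of no change in seu ant, and in 41 of the 42 reversal probe sets the observed and summed changes have opposite signs.

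The classes were assigned from these same arrays, so the medians and counts of members given for them here and below describe them and test nothing. In the 222 synergistic probe sets that lay lower, the median change from wild type was -0.67 in seu ant, -0.04 in seu and 0.05 in ant. In the 219 that lay higher, the medians were 1.35, 0.18 and -0.24. Saturation had 209 members above the additive expectation, with medians of -0.73 in ant, -0.26 in seu and 0.07 in seu ant, and 110 below it, with medians of 0.49 in ant, 0.27 in seu and 0.08 in seu ant. Reversal had 35 members above and 7 below. In the 35, ant had a median of -0.68 and seu ant one of 0.72.

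**Figure D2:**
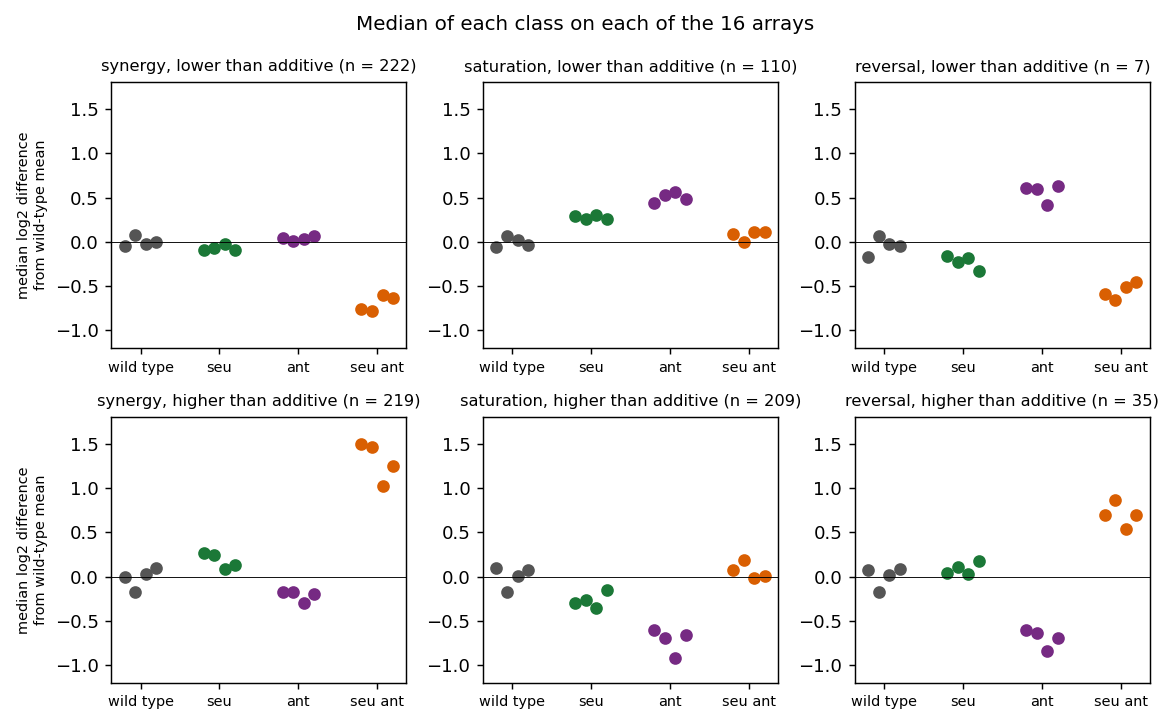
Each point is 1 of the 16 arrays, and the y axis gives the median log2 difference from the wild-type mean over the probe sets of a class. The seu ant arrays stand at -0.78 to -0.60 in the lower synergy class and at 1.02 and above in the higher one, while in both saturation panels they lie within 0.19 of the wild-type mean and the ant arrays stand apart.

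Synergy toward lower signal took up 0.976% of the probe sets. In 204 of the 222 neither seu nor ant was called against wild type, which does not show that they were unshifted, in 10 seu alone, in 6 ant alone, and in 2 both. All 4 seu ant arrays lay below all 12 others in 203 of the 222, as the choice of the class favours; over all probe sets this held for 4.22%. The count of 222 became 130 with the additive model on linear signal and 123 on log2 of signal plus 16. It was 145 without wild type replicate 1, 140 without wild type replicate 4, 143 without seu replicate 1, 128 without seu replicate 3, 147 without ant replicate 4, 127 without seu ant replicate 2 and 340 without seu ant replicate 3. The largest departure was in AT5G17080, a cathepsin-related gene. Its signal was 1200, 1920, 1610 and 1710 in wild type, 1420, 1490, 2190 and 1710 in seu, 577, 479, 925 and 955 in ant, and 21.5, 18.9, 62.4 and 34.5 in seu ant. Every seu ant array was far below every other array. The non-additivity was -4.60 on the log2 scale (standard error 0.49, limma adjusted p = 0.00117), and seu ant kept 1.93% of the wild-type level where the product of the single-mutant changes would leave 46.8%.

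Regulators of organ polarity and auxin were among the genes that fell beyond both singles. YUC4, an enzyme of auxin synthesis, had signals of 226, 289, 236 and 238 in wild type, 285, 310, 208 and 263 in seu, 232, 257, 339 and 293 in ant, and 49.0, 90.5, 105 and 84.8 in seu ant. The single mutants overlapped wild type, and seu ant stood below all of them. The change in seu ant was -1.64 against an expectation of 0.27, which gave a non-additivity of -1.91 (standard error 0.30, limma adjusted p = 0.00577). IAA30, an Aux/IAA repressor of auxin response, read 278 to 388 on the wild-type arrays, 230 to 311 on those of seu, 198 to 282 on those of ant and 41.7 to 77.5 on those of seu ant. That left 18.7% of the wild-type level where 53.0% was expected (limma adjusted p = 0.0107).

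YAB3, a YABBY factor that promotes abaxial fate, measured 1090, 1170, 1100 and 1310 in wild type, 630, 406, 546 and 614 in seu, 510, 220, 382 and 468 in ant, and 5.18, 61.1, 23.9 and 54.9 in seu ant, where 1 array was under the floor of 16. The difference of -1.63 in ant was called, that of -1.11 in seu was not (limma adjusted p = 0.194), and no array of seu ant overlapped another genotype. The non-additivity was -2.38 (standard error 0.54, limma adjusted p = 0.027). It lost its call without wild type replicate 1, seu replicate 1, seu replicate 3 or ant replicate 4, where adjusted p was 0.0508 to 0.0532. AFO, a second abaxial YABBY gene also called FIL, fell to 41.7% of wild type where 75.4% was expected, with a non-additivity of -0.86 (standard error 0.21, limma adjusted p = 0.0371); its call held only without wild type replicate 3, seu replicate 2 or seu ant replicate 3, and was lost without any other array (adjusted p at most 0.0752). PHV, an HD-ZIP III factor that promotes adaxial fate, had a non-additivity of -0.98 (standard error 0.23, limma adjusted p = 0.029), and the call was lost without wild type replicate 3, seu replicate 3, ant replicate 3, ant replicate 4, seu ant replicate 1 or seu ant replicate 2 (adjusted p at most 0.0569). Among the other measured polarity genes, YAB5, another YABBY factor, had a non-additivity of 1.38 (unadjusted p = 0.00573 in limma) and the abaxial factor KAN2 one of 0.31 (unadjusted p = 0.0131 in limma), both above the expectation and not called after adjustment.

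Among B3-domain factors, VDD showed the tightest departure of this kind. It measured 737, 742, 555 and 589 in wild type, 574, 584, 622 and 569 in seu, 243, 253, 158 and 253 in ant, and 58.4, 67.4, 52.5 and 50.3 in seu ant. The ant arrays were already apart from wild type, and the seu ant arrays were lower again, although seu alone overlapped wild type. The non-additivity was -1.82 (standard error 0.22, limma adjusted p = 0.00181). NGA1, a RAV-type factor of style development, ran the other way between the singles, with -1.03 in seu and 0.11 in ant, and reached -2.65 in seu ant (non-additivity -1.74, standard error 0.32, limma adjusted p = 0.0113). REM22 read 2730 to 3530 on the wild-type arrays, 509 to 1040 on those of seu, 1840 to 2640 on those of ant and 46.4 to 253 on those of seu ant. Its non-additivity was -2.30 (standard error 0.56, limma adjusted p = 0.0332), and the call held only without wild type replicate 2, seu replicate 3, ant replicate 3, or seu ant replicate 1, 3 or 4 (adjusted p otherwise at most 0.0687).

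For REM22 and YAB3 the sign of the departure depended on the scale. On linear signal, where changes add rather than multiply, the non-additivity was 90.0 signal units for REM22 (limma adjusted p = 0.913) and 263.6 for YAB3 (limma adjusted p = 0.136), both above 0 and not called. The other genes above kept a value below 0 on that scale, and of those AT5G17080, VDD, IAA30, PHV and AFO were no longer called, while YUC4 and NGA1 were. For genes already lowered in a single mutant, synergy here refers to ratios.

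Other genes named by the same rule lay in this class. ARR15, a type-A response regulator that dampens cytokinin signalling, read 367 to 883 on the wild-type arrays, 299 to 355 on those of seu, 387 to 675 on those of ant and 16.2 to 94.9 on those of seu ant, with a non-additivity of -2.60 (standard error 0.61, limma adjusted p = 0.0291). That call was lost without wild type replicate 4, seu replicate 1, seu replicate 3, ant replicate 4 or seu ant replicate 4 (adjusted p at most 0.0561). EMS1, a receptor kinase of anther cell fate and the 1 called gene of 6 on the stamen list, fell to 38.9% of wild type against an expected 69.3% (non-additivity -0.83, standard error 0.16, limma adjusted p = 0.0152). IQD18, an IQ67-domain calmodulin-binding protein, fell to 21.6% against 52.6%. The leucine-rich repeat gene AT1G68780 had a non-additivity of -2.38 and the Dof-type zinc finger gene AT5G66940 one of -2.30, and their seu ant arrays reached at most 76.7 and 408, below the lowest of the other arrays at 258 and 1230. On linear signal ARR15, EMS1, AT1G68780 and AT5G66940 kept a value below 0 and were not called, while IQD18 was.

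Synergy toward higher signal was as frequent, at 0.963% of the probe sets. In 197 of the 219 neither single was called, in 21 seu alone was, and in 1 ant alone. All 4 seu ant arrays exceeded all 12 others in 196 of the 219, again favoured by the choice of the class; over all probe sets this held for 3.83%. The count was 139 without seu replicate 3, 131 without seu ant replicate 2 and 332 without seu ant replicate 3. The summed single-mutant change lay below wild type in 125 of the 219, so in more members than not the expectation pointed the other way. This class held more dim probe sets than its lower counterpart: the mean log2 signal was under 6 in 46 of 219, against 4 of 222.

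COR15A, a cold-induced protein that protects chloroplast membranes, had the largest non-additivity of the synergistic genes above the brightness limit for naming. It measured 36.9, 44.1, 73.6 and 93.0 in wild type, 112, 104, 111 and 26.6 in seu, 35.5, 16.2, 3.93 and 52.2 in ant, and 1190, 958, 319 and 378 in seu ant. The 3 other genotypes overlapped each other, 1 ant array was under the floor, and every seu ant array was above them. The non-additivity was 4.12 (standard error 0.84, limma adjusted p = 0.0179). COR15B, its close relative, read 53.6 to 89.2 on the wild-type arrays, 106 to 177 on those of seu, 47.2 to 89.5 on those of ant and 323 to 527 on those of seu ant, and its non-additivity was 1.64 (standard error 0.36, limma adjusted p = 0.0234). In COR15B the rise in seu was itself called, and seu ant went beyond it.

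PIFI, a chloroplast protein that affects the redox state of the photosynthetic electron chain, measured 84.3, 44.1, 65.7 and 103 in wild type, 174, 106, 83.9 and 107 in seu, 32.7, 14.1, 35.8 and 46.8 in ant, and 607, 328, 251 and 322 in seu ant. The seu ant arrays were the highest and the lowest values were in ant, where 1 array was under the floor. Seu ant reached 502% of wild type where 69.1% was expected (non-additivity 2.86, standard error 0.53, limma adjusted p = 0.0116). ECS1 measured 1030, 1050, 316 and 1110 in seu ant, above the highest value of 184 on the other arrays, with a non-additivity of 3.40 (standard error 0.62, limma adjusted p = 0.0113). PIA1, a protein phosphatase of the PP2C family, had a non-additivity of 2.47 (standard error 0.46), AT2G44940 one of 2.56 (standard error 0.41) and AT2G25510 one of 3.66 (standard error 0.80). In PIA1, AT2G44940, PIFI, ECS1, COR15A and AT2G25510 alike the estimate for ant was below 0, from -1.21 in PIFI to -0.83 in ECS1, and none was called. Non-additivity subtracts the ant change, so naming genes by its largest values favours such estimates.

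SWEET17, a fructose transporter of the vacuole membrane, differed from these in that the estimates of both singles lay above wild type, neither called. It measured 138, 175, 273 and 212 in wild type, 301, 534, 397 and 290 in seu, 243, 248, 262 and 232 in ant, and 1520, 903, 1190 and 1230 in seu ant. The non-additivity was 1.34 (standard error 0.32, limma adjusted p = 0.0324) on top of an expectation of 1.28, and the call held only without wild type replicate 1 or 2, seu replicate 2, or seu ant replicate 2 or 3 (adjusted p otherwise at most 0.0634). On linear signal COR15A and PIFI were not called, and SWEET17 and COR15B were.

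**Figure D3:**
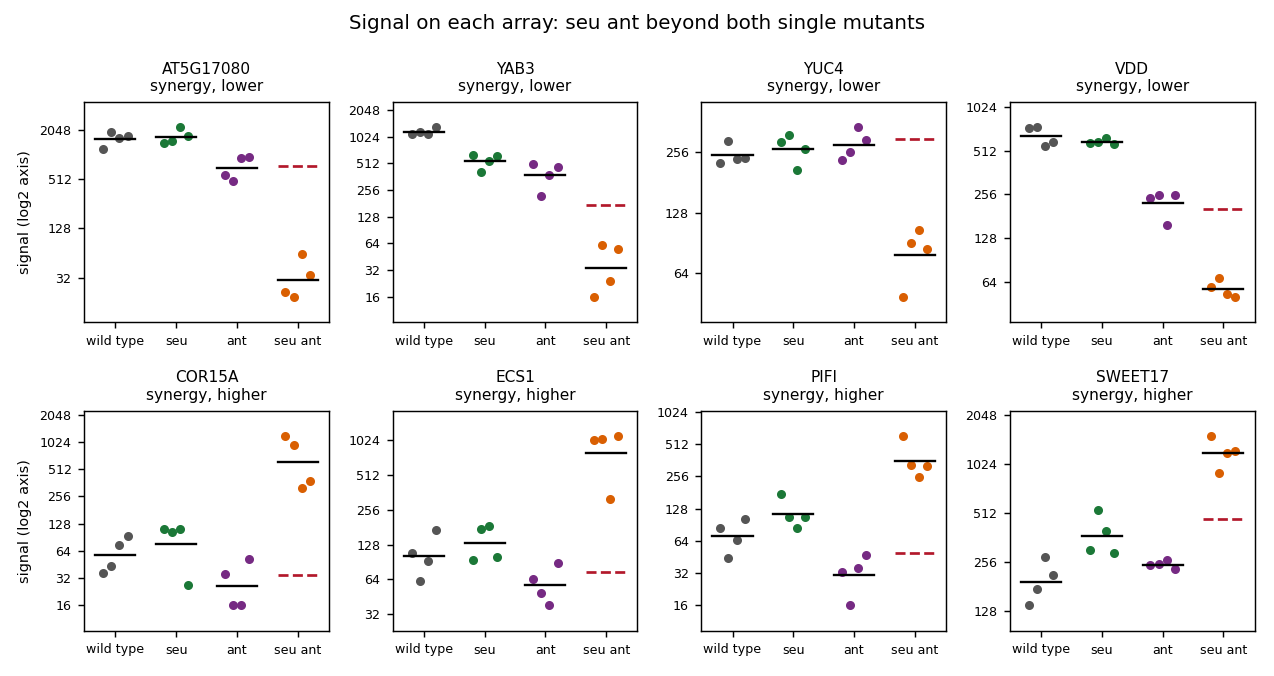
Signal (log2 axis, values under 16 drawn at 16) of 8 synergistic genes on each of the 16 arrays, with a black line at the mean log2 of each genotype and a dashed red line at the additive expectation for seu ant. The seu ant points of each gene lie beyond all other arrays and beyond the dashed line, as for YUC4 at 49.0 to 105 and SWEET17 at 903 to 1520.

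Saturation above the additive expectation, 0.919% of the probe sets, was mostly a matter of ant. In 190 of its 209 members ant alone was called lower than wild type, in 8 seu alone and in 11 both. Seu ant was not called against wild type in 191 of them, and was still called lower in 18. All 4 seu ant arrays were at 16 in 0 of the 209 and at least 1 was in 5. As seu ant was mostly not called lower than wild type, the class itself makes values at the floor unlikely. Where ant had been called lower, seu ant was called higher than ant in 174 of 201, a direction that the choice of the class favours, and in the other 27 it was not called. In 185 of those 201 the seu estimate was on the same side of wild type as ant. The shared wild-type arrays and the choice of the class favour that side too, so this tests nothing. The count of 209 was 95 without wild type replicate 1, 118 without wild type replicate 3, 105 without wild type replicate 4, 137 without seu replicate 1 and 94 without ant replicate 3.

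CCL, a gene whose transcript follows the circadian clock, measured 2010, 554, 1810 and 1690 in wild type, 1000, 948, 389 and 1390 in seu, 361, 202, 278 and 202 in ant, and 2280, 1790, 1200 and 946 in seu ant. The ant arrays lay below all others, and seu ant overlapped wild type. Ant had 18.6% of the wild-type level, seu 62.3% and seu ant 108%, where 11.6% was expected (non-additivity 3.22, standard error 0.66, limma adjusted p = 0.018). In AT3G56360 the ant arrays were also lowest. It measured 418, 447, 414 and 543 in wild type, 345, 280, 305 and 330 in seu, 85.1, 92.5, 106 and 99.0 in ant, and 378, 405, 204 and 317 in seu ant. Ant stood apart from all, and seu ant overlapped seu and lay below the wild-type arrays. The non-additivity was 2.26 (standard error 0.25, limma adjusted p = 0.00165), and seu ant differed from wild type by -0.52 (limma adjusted p = 0.0521).

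AT1G56220, of the dormancy and auxin associated family, fell to 22.2% of wild type in ant and stood at 171% in seu ant, with a non-additivity of 3.02 (standard error 0.53, limma adjusted p = 0.00973). AT3G23760 had a non-additivity of 2.91 (standard error 0.55) and AT5G02160 one of 2.36 (standard error 0.51). AT1G01240 had one of 2.65 (standard error 0.67, limma adjusted p = 0.0394), and the call held only without wild type replicate 2, seu replicate 4 or ant replicate 1 (adjusted p otherwise at most 0.0807). PSAN, a subunit of photosystem I, was called lower in ant at a difference of -0.63, with 1320 to 2160 against 2330 to 3630 in wild type, and measured 3290 to 4030 in seu ant (non-additivity 1.37, standard error 0.23, limma adjusted p = 0.0081).

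The ant arrays had lower median signals, 153.1 to 173.6, than the wild-type arrays, 179.2 to 188.6, although all had one trimmed mean. Centring each array on its median moved the median non-additivity of all probe sets from 0.00 to -0.15. The members of saturation above the expectation then numbered 89 in place of 209, of which 85 were shared, and those below it 339 in place of 110. With quantile normalization the counts were 156 and 138. The split of saturation was thus 65.5% above the expectation as deposited, 20.8% with median centring and 53.1% with quantile normalization. CCL, AT3G56360, AT1G56220, AT3G23760, AT5G02160, AT1G01240 and PSAN were called above the expectation under both.

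Saturation below the additive expectation, 0.484% of the probe sets, held rises that did not add up. Ant alone was called higher in 86 of the 110, seu alone in 13 and both in 11, and seu ant was not called against wild type in 102. The count was 57 without wild type replicate 1, 64 without seu replicate 3, 65 without ant replicate 3, 71 without seu ant replicate 2 and 67 on log2 of signal plus 16. SCPL32, a serine carboxypeptidase-like protein, had the largest value. It measured 94.1, 79.4, 112 and 74.1 in wild type, 818, 591, 818 and 773 in seu, 186, 195, 202 and 194 in ant, and 82.0, 119, 150 and 151 in seu ant. Both singles were above wild type on every array, and the seu ant arrays overlapped wild type. Seu was 8.39-fold and ant 2.19-fold above wild type, while seu ant was at 1.38-fold, not called (limma adjusted p = 0.0984). The non-additivity was -3.74 (standard error 0.26, limma adjusted p = 5.69e-05).

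AT5G44440, a gene for a FAD-binding domain protein, repeated this with seu alone: 464 to 693 on the seu arrays against 96.1 to 158 in wild type, 111 to 173 in ant, and 88.1 to 182 with both mutations (non-additivity -2.25, standard error 0.32, limma adjusted p = 0.00469). The rise in seu was absent when ANT was also mutant. AT1G58170, a dirigent-related gene, was a plateau. It read 22.7 to 53.4 on the wild-type arrays, 107 to 135 on those of seu, 80.3 to 156 on those of ant and 112 to 155 on those of seu ant, so that each mutant had risen and seu ant (394% of wild type) was near seu (354%) and ant (308%) rather than at the expected 1090%. Its non-additivity of -1.47 (standard error 0.35, limma adjusted p = 0.0328) kept its call only without wild type replicate 2 or 4, seu replicate 1, ant replicate 1 or 4, or seu ant replicate 1 or 3 (adjusted p otherwise at most 0.0677). AT5G09780, of the B3 family, rose in ant alone, to 516 to 689 from 176 to 257, and stood at 88.9 to 235 in seu ant (non-additivity -1.30, standard error 0.32, limma adjusted p = 0.0337), called only without wild type replicate 2 or 4, ant replicate 3, or seu ant replicate 1, 3 or 4 when single arrays were left out (adjusted p otherwise at most 0.0644). AT5G59240 had a non-additivity of -1.94 (standard error 0.41). AT1G63840 had one of -1.35 (standard error 0.35, limma adjusted p = 0.0416), which kept its call only without wild type replicate 4 or seu ant replicate 1 (adjusted p otherwise at most 0.075).

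Plateaus like that of AT1G58170 were seldom called. Both singles were called lower than wild type in 54 probe sets, and in 41 of these non-additivity was not called, in 11 seu ant fell short of the sum and in 2 it went beyond. Both were called higher in 88 probe sets, of which 77 were not called non-additive, 11 fell short and 0 went beyond in limma. The median half-width of the 95% interval of non-additivity was 0.47 in the 54 and 0.56 in the 88 before adjustment. The largest unadjusted limma p among called probe sets was 0.00255, so a call that was not made leaves room for departures larger than these half-widths. NUB, a regulator of carpel and stamen growth chosen here after its values were seen, lay close to the sum. It read 409 to 654 on the wild-type arrays, 162 to 238 on those of seu, 197 to 265 on those of ant and 59.5 to 141 on those of seu ant, with a non-additivity of 0.16 and a 95% interval of -0.59 to 0.90. BAM5, a beta-amylase chosen likewise, reached 15400 to 19500 in seu ant from 120 to 302 in wild type, 6.51 on the log2 scale against an expected 6.87 (95% interval of the non-additivity -1.09 to 0.36).

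Reversal was nearly all on the side of ant. Among the 35 members above the expectation (0.154% of probe sets), ant was called lower than wild type in 34 and seu in 1, AT5G37740, named here after its values were seen, with -0.96 in seu and 1.13 in seu ant. Among the 7 below it (0.0308%), ant was called higher in 7 and seu in 0. The count of 35 was 13 without wild type replicate 1, 15 without wild type replicate 3, 13 without wild type replicate 4, 22, 17 and 23 without ant replicates 2, 3 and 4, and 53 and 23 without seu ant replicates 3 and 4. The count of 7 was 4, 2 and 2 without wild type replicates 2, 3 and 4, and 4 and 3 without ant replicates 1 and 3. HPR, the peroxisomal hydroxypyruvate reductase of photorespiration, measured 888, 571, 1000 and 1020 in wild type, 573, 540, 808 and 676 in seu, 482, 435, 296 and 433 in ant, and 1610, 1960, 1110 and 1430 in seu ant. Ant lay below all other genotypes and seu ant above them. The change was -1.07 in ant and 0.82 in seu ant, and the non-additivity was 2.29 (standard error 0.32, limma adjusted p = 0.0039).

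AT3G47800, of the aldose 1-epimerase family, measured 424, 319, 340 and 317 in wild type, 446, 477, 225 and 565 in seu, 176, 178, 170 and 163 in ant, and 939, 904, 770 and 721 in seu ant. The seu arrays overlapped wild type, while ant and seu ant were on either side of both. Its non-additivity was 2.05 (standard error 0.31, limma adjusted p = 0.00577). SHN3, an AP2/ERF factor of cuticle formation, read 78.2 to 139 on the wild-type arrays, 27.4 to 74.4 on those of ant and 177 to 289 on those of seu ant (non-additivity 2.23, standard error 0.38, limma adjusted p = 0.0093). AT3G53950 had a non-additivity of 2.09, AT1G49975 of 1.82 and AT5G40500 of 1.81. In the opposite direction AT1G55690, of the SEC14 family of lipid transfer proteins, read 1180 to 1540 on the wild-type arrays, 1240 to 1470 on those of seu, 1660 to 2090 on those of ant and 684 to 990 on those of seu ant (non-additivity -1.15, standard error 0.17, limma adjusted p = 0.00577). AT1G21540 had a non-additivity of -0.76, AT1G60060 of -0.76 and AT4G17070 of -0.69. Of these 4 genes, AT1G21540 was the 1 in which seu was also called against wild type, lower at -0.91.

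**Figure D4:**
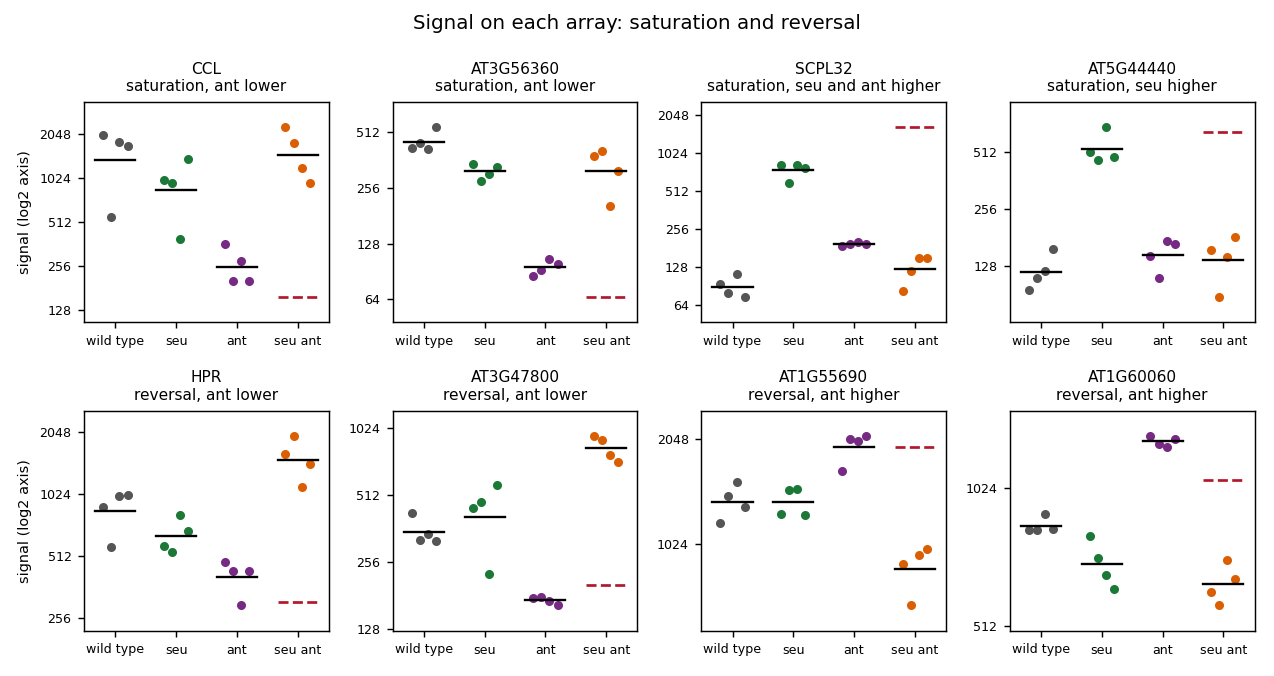
Signal (log2 axis, values under 16 drawn at 16) of 4 genes of saturation (upper row) and 4 of reversal (lower row) on each of the 16 arrays, with a black line at the mean log2 of each genotype and a dashed red line at the additive expectation for seu ant. In CCL and AT3G56360 the ant arrays lie below all others, in SCPL32 seu ant returns to 82.0 to 151 beside 74.1 to 112 in wild type, and in the lower row ant and seu ant lie on opposite sides of wild type.

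The single mutants' own calls were also read against the sum. Of the 690 probe sets called lower in ant (3.03%), 235 (34.1%) were non-additive in the other direction, and of the 430 called higher (1.89%), 104 (24.2%) were. For seu the counts were 20 of 208 called lower (0.914% of all), or 9.62%, and 24 of 290 called higher (1.27% of all), or 8.28%. With median centring the ant calls numbered 297 lower and 1101 higher, of which 38.4% and 30.4% were non-additive in the other direction, and for seu the shares were 9.7% and 10.5%. The difference between ant and seu in these shares was not tested, and both share the wild-type and seu ant arrays. Non-additivity contains the values that gave each call, so a call in a single mutant favours non-additivity in the other direction. Over all probe sets, 2.78% were non-additive above the expectation and 2.33% below it. In the double mutant, 2597 probe sets (11.4%) were called lower than wild type and 1887 (8.3%) higher. Of the first, 246 (9.47%) were called lower than additive, and of the second, 272 (14.4%) were called higher than additive. A call in seu ant likewise favours non-additivity in its own direction. In 2333 and 1607, non-additivity was not called.

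Gene lists were drawn up by function and by the study's themes, and are described by counts and medians. The list of photosystem and light-harvesting genes also holds RCA, Rubisco activase. All 9 measured members had a value above 0, from 0.75 to 1.44. Their median was 0.93 beside 0.00 over all probe sets, and 4 of the 9 were called. At an unadjusted p under 0.05 all 9 were higher, against 10.4% of all probe sets. The 9 had mean log2 signals of 8.91 to 12.11, while 40.3% of all probe sets had one under 6. The 2 shares are therefore not at like brightness. PSAE-1, a subunit of photosystem I, read 3230 to 4320 on the wild-type arrays, 2850 to 3680 on those of seu, 1860 to 2970 on those of ant and 3550 to 5030 on those of seu ant (non-additivity 1.03, standard error 0.22, limma adjusted p = 0.0229). PSBW, of photosystem II, had one of 0.79 (standard error 0.20, limma adjusted p = 0.0366), which was not called with median centring (0.64, adjusted p = 0.0659), on log2 of signal plus 16 (adjusted p = 0.0514), or without wild type replicate 1 or 4, seu replicate 1, 2 or 3, or seu ant replicate 1, 2 or 4 (adjusted p at most 0.0739). PSBY, also of photosystem II, had one of 0.75 and was the 1 synergistic member. In 8 of the 9, all but LHCB4.3, the estimates for both singles were below wild type and that for seu ant above it. The median was 0.78 with median centring, where 2 were called, and 0.95 with quantile normalization, where 5 were, and all 9 passed the unadjusted threshold under both.

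Of the 13 measured genes of cold, dehydration and abscisic acid response, 3 were called above the expectation, where 2.78% of all probe sets were: COR15A, COR15B and LEA18, a late embryogenesis abundant protein in the reversal class, which read 29.7 to 57.4 on the wild-type arrays, 2.49 to 8.56 on those of ant and 51.7 to 108 on those of seu ant. All 4 ant arrays of LEA18 were under the floor, so its difference from wild type in ant is a bound. The list's median was 0.45. Of 23 genes of sugar metabolism and transport, 2 were called higher, SWEET17 and SUS6, a sucrose synthase, with a median of 0.62 that became 0.27 under a floor of 32 and 0.39 with quantile normalization. Of 4 genes on the list of jasmonate and methyl esters, which also holds MYC3 and MYC4, 1 was called, BSMT1, which methylates benzoic and salicylic acid. All 4 of its wild-type arrays, all 4 of ant and 2 of seu were under the floor, so its additive expectation rests on the floor. On the seu ant arrays it read 328 to 1960. Of 3 clock genes 1, CCL, was called.

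Below the expectation stood the B3 factors of the REM and RAV families, with 4 of 13 called, where 2.33% of all probe sets were called lower (REM22, VDD, NGA1 and AT5G09780), 12 of 13 below 0 and a median of -0.72. At an unadjusted p under 0.05, 8 of 13 were lower, against 10.1% of all probe sets. Of 7 polarity genes 3 were called lower, of 5 auxin synthesis genes 1, of 14 auxin response genes 1, of 9 cytokinin genes 1 and of 12 IQ67-domain genes 1, and 0 members of these lists were called higher by limma. Their medians were -0.16, -1.25, 0.15, -0.01 and -0.22, and the polarity, auxin response and cytokinin lists had members on both sides. In the auxin synthesis list only YUC4 had a seu ant estimate below wild type. The median was that of YUC2, with estimates above wild type in seu (1.08), ant (1.08) and seu ant (0.92). YUC6 had 1.40, 0.75 and 0.62 in that order, so both were rises short of the sum. YUC7 and YUC11 lay near the floor. These 4 genes are named after their values were seen. At an unadjusted p under 0.05, 3 polarity genes were lower and 2 higher, 3 auxin response genes lower and 2 higher (IAA33 at 1.58 and WES1 at 1.26), and 1 cytokinin gene lower and 1 higher (RR16 at 1.96). These higher members are named here after their values were seen. The study had picked REM, IQ67 and polarity genes from these libraries, so their direction is not independent evidence. Of the 16 measured genes of the study's own list of candidates, 11 were in the lower synergy class, and the study had chosen them on these arrays for a value below the additive model.

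No member was called in limma among 16 gynoecium and meristem regulators, 43 floral MADS box factors or 36 cell wall remodelling genes. The same held for 8 heat and wounding genes, 5 replication genes and 4 stomatal genes. It also held for a list of 3 genes, SEU, BBM and the SEU relative SLK1, and for WAG2, the 1 measured member of the auxin transport list. BBM lay near the floor, and 2 of the 4 seu ant arrays of WAG2 were under it, so the fall of WAG2 there is a bound. At an unadjusted p under 0.05 the counts were 1 lower and 2 higher, 0 and 3, 2 and 2, 1 and 1, 1 and 0, 0 and 0, 0 and 0, and 1 and 0. Over all probe sets 10.1% were lower and 10.4% higher at that threshold, and 2.33% and 2.78% after adjustment. Many members of the MADS box and cell wall lists were dim. AGL29, AGL41, AGL86, AGL92, AGL103, EXPA21, XTH21 and AT4G30380 never exceeded the floor, so their value was fixed at 0 and no call was possible. SPT, a bHLH factor of the carpel margin, had a non-additivity of -0.17 with a 95% interval of -0.74 to 0.40, so its fall in seu ant of -1.38 was not distinguishable from the sum.

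**Figure D5:**
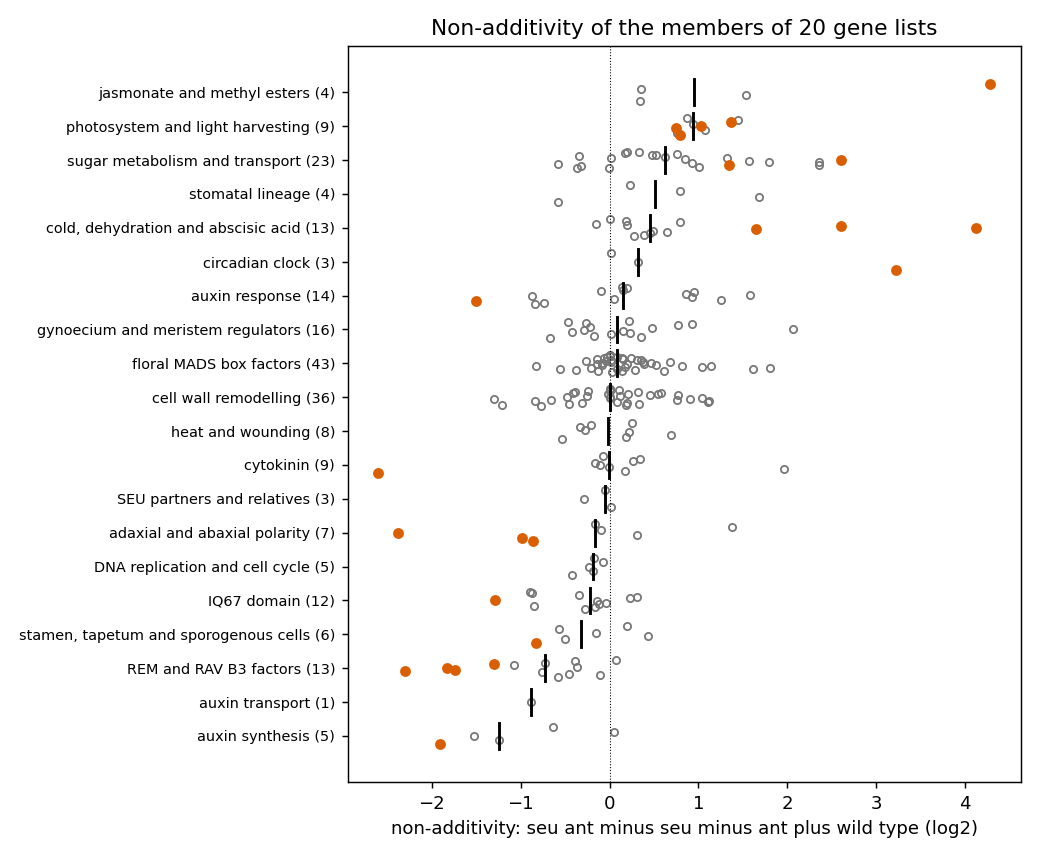
Non-additivity on the log2 scale (x axis) of each measured member of 20 gene lists (y axis, number of members in brackets), with filled orange points for members called at an adjusted p under 0.05, open points for the others and a black bar at the list's median. The 9 genes of the photosystem list lie together between 0.75 and 1.44 and the B3 factors mostly below 0. The MADS box and cell wall lists are centred near 0 and hold many dim members, some fixed at 0 by the floor.

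The SEU transcript bore out the labels, with 786 to 978 in wild type, 749 to 943 in ant, 181 to 340 in seu and 235 to 273 in seu ant, and its non-additivity was 0.02 (95% interval -0.50 to 0.53). ANT is not analysed here. Of markers for other floral tissues that were measured, the pollen regulator AMS was between 1.59 and 39.3 on all arrays and the ovule gene INO between 1.20 and 37.7, both near the floor, and the style gene NGA3 was present at 32.5 to 152. All arrays had a 2% trimmed mean of 499.8, 20.0% to 24.4% of the probe sets at the floor, and correlations within genotypes of 0.972 to 0.986. The log2 ratio of the 3′ to the 5′ GAPDH control, a sign of RNA integrity, was 1 to 2.52, and the genotypes overlapped. The lowest value was in wild type replicate 1, and the other wild-type arrays stood at 2.01 to 2.42.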

How the data were processed

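The authors deposited MAS5 signal intensities on a linear scale, as the submitters' processing notes name the method, with a common trimmed mean per array. No source used here gives the version of MAS5. Without the 64 AFFX controls, 22746 probe sets remained. Signals were floored at 16 and converted to log2, and limma 3.58.1 in R 4.3.3 fitted a mean for each genotype, with variances moderated by empirical Bayes. The number of arrays limits the precision, and the median standard error of non-additivity was 0.24. Scripts were tested on simulated data with known classes. Plots were made in Python 3.11.15 (matplotlib 3.10.9).

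Gene names came from the platform table for 13513 probe sets and from a supplementary table, for names only, for 341. Where several probe sets matched a gene, the brightest stood for it. Named were the 6 genes of each class and direction with the largest absolute non-additivity among those with a mean log2 signal of at least 6 (fewer where the class held fewer), up to 3 called members of each gene list, and SEU. The members and lists were chosen with earlier results of these data known, and 3 REM genes were added and 5 homonyms removed once the files had been seen. Alternatives changed the floor, the scaling, the filter, the moderation, the threshold, the scale of the additive model and the arrays used. Some carpel regulators, among them ANT, are not analysed here. No promoter sequences were used.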

Additional observations from a re-analysis of the deposited data

Results flagged for a closer look

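Among 192 sets of 4 arrays, 1 for each named gene and genotype, 19 held an array further from the other 3 than the 95% critical value of Dixon's test allows, where chance marks about 5% of such sets. In seu ant, replicate 3 was the odd array for ECS1 (316, the others 1030 to 1110), PIA1 (313, the others 644 to 740) and AT1G21540 (300, the others 228 to 233), and replicate 1 for IAA30 (41.7, the others 73.5 to 77.5). In ant, replicate 3 was odd for AT3G23760 (14.3, the others 51.1 to 62.8), VDD (158, the others 243 to 253) and PSBW (2680, the others 3800 to 3950), replicate 1 for AT1G55690 (1660, the others 2020 to 2090) and replicate 4 for AT4G17070 (349, the others 317 to 321). In seu, this held for COR15A in replicate 4 (26.6, the others 104 to 112), COR15B in replicate 3 (106, the others 171 to 177) and AT4G17070 in replicate 1 (219, the others 235 to 237). In wild type it held for CCL in replicate 2 (554, the others 1690 to 2010), REM22 in replicate 1 (3530, the others 2730 to 2830), AT1G21540 in replicate 1 (667, the others 552 to 567) and AT1G60060 in replicate 3 (899, the others 829 to 835). The SEU transcript itself had an odd array in 3 genotypes, at 786 in wild type replicate 4, 181 in seu replicate 1 and 235 in seu ant replicate 1.

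In the 10 named genes of the reversal class, ant and seu ant lay on opposite sides of wild type, which the class requires, as it requires that non-additivity was called. Its values are therefore a description. The difference between seu ant and seu, the effect of ant without functional SEU, was itself called in 6 of them and not in AT3G53950, AT1G21540, AT1G60060 and AT4G17070. Non-additivity was 2.29 for HPR, 2.23 for SHN3, 2.09 for AT3G53950, 2.05 for AT3G47800, 1.82 for AT1G49975, 1.81 for AT5G40500, -1.15 for AT1G55690, -0.76 for AT1G21540, -0.76 for AT1G60060 and -0.69 for AT4G17070.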

How the results depend on the processing

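The called sets depended on scale and scaling more than on whether the floor was 16 or 32. Median centring moved the median non-additivity of all probe sets to -0.15 and gave 1007 probe sets below the additive expectation in place of 531, 339 of saturation below it in place of 110, 89 of saturation above it in place of 209, and 16 of reversal below it in place of 7. The share of non-additive probe sets above the expectation was 54.3% as deposited, 31.1% with median centring, 49.7% with quantile normalization and 64.7% on log2 of signal plus 16, and that of reversal 83.3%, 65.2%, 74.3% and 85.2%. For synergy the share was 49.7% as deposited, 42.9% with median centring, 62% on log2 of signal plus 16 and 69.3% with the additive model on linear signal. Of the 222 and 219 synergistic probe sets, 172 and 172 were shared with median centring, and 176 and 184 with quantile normalization. On log2 of signal plus 16 there were 277 non-additive probe sets below the expectation, 123 of synergy and 67 of saturation below it, and 4 of reversal below and 23 above it. The linear model left 130 of synergy below the expectation, and turned the sign of YAB3 (263.6 signal units) and REM22 (90.0 signal units). Restricting the fit to the brighter 60% of probe sets gave 75 of reversal above the expectation, with fewer probe sets tested. With unadjusted p there were 2287 below and 2358 above, of which synergy held 593 and 539 and saturation 252 and 436. The cause of these shifts was not tested.

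Leaving out 1 array at a time, probe sets below the expectation ranged from 297 to 660 and above it from 387 to 801. Synergy ranged from 127 to 340 below and 131 to 332 above, saturation from 57 to 141 and 94 to 294, and reversal from 2 to 9 and 13 to 53. No paired analysis was possible because the labels carry no replicate number that is shared between genotypes. With the lower against the higher running title numbers as a block, counts were within 1.5 times, and of the 48 named genes AT1G63840 lost its call (adjusted p = 0.0527 in limma). Without variance moderation AT1G01240, AT1G63840 and AFO lost theirs (adjusted p 0.0507 to 0.0586), and PSBW did with median centring and on log2 of signal plus 16. On linear signal 13 lost their call and 2 turned sign. With quantile normalization and with a floor of 32 the 48 kept their direction and side of the threshold. Medians of the gene lists under a floor of 32 and log2 of signal plus 16 were added after the data had been seen. With 4 arrays per genotype the median 95% half-width of non-additivity was 0.53. The 567 probe sets that never exceeded the floor carry no information on genotype, but they entered the fit and the adjustment. Without them 386 probe sets lay below the expectation in place of 531, with 170 of synergy in place of 222 and 79 of saturation in place of 110. The share above the expectation was then 60.9% in place of 54.3%.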
